A study of Mus musculus with 6 samples.

Results

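Skeletal muscle contractile and synaptic genes encode the sarcomere, the calcium machinery that triggers contraction and the acetylcholine receptor through which motor neurons excite the fibre. The set described here holds 37 named genes, of which 36 had a probe set with a single gene symbol among the 18194 genes on the arrays. Klhl31 was not analysed here. Gene expression was measured in branchial arch 1, the embryonic precursor of the jaws, of mouse embryos at embryonic day 11.5, with 1 arch taken from each embryo per the labels, which do not say whether a sample pools embryos. The 3 arrays labelled control came from Ezh2lox/lox embryos and the 3 labelled mutant from Ezh2lox/lox embryos that also carried Wnt1Cre, so the conditional allele of Ezh2, the histone methyltransferase of Polycomb repressive complex 2, was shared by all 6 samples. Wnt1Cre is driven in the neural crest lineage.

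Sarcomere proteins fall into thick filaments of myosin, thin filaments of actin with the troponins that make them sensitive to calcium, and the scaffold that anchors both. Differentiating muscle cells switch these genes on together under the myogenic factors Myod1 and Myog, with embryonic and cardiac forms of several proteins made before the adult forms. The muscles of the jaw come from mesoderm in the core of the arch, whereas its skeleton and connective tissue come mainly from the neural crest.

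Values are log2 signals of the brightest probe set of each gene by its average over all 6 arrays, and changes are labelled mutant minus labelled control with the standard error (SE) from limma. A gene passed the test at a Benjamini-Hochberg adjusted p under 0.05 over all 18194 genes. The arrays are called by their labels because other genes raise doubt about them. Ezh2 read between 11.52 and 11.80 in the labelled-control arrays and between 11.65 and 11.66 in the labelled-mutant arrays, which checks neither label because the deleted exons and the probe position were not compared. Hoxa9, a gene that Polycomb keeps silent in the jaw arch, read 10.86 to 11.57 in the labelled-control and 3.82 to 4.51 in the labelled-mutant arrays. Xist read 5.45 to 5.75 and 12.92 to 13.10, so that embryo sex and label cannot be told apart. Smpx is the only X-linked member by the RefSeq gene table. The arch mesenchyme markers Prrx1, Prrx2, Twist1, Msx1, Dlx1, Dlx2, Dlx5, Hand2, Alx4, Barx1, Pdgfra and Col1a1 averaged 9.78 to 9.95 and 10.07 to 10.18, against an array median of 5.81, although Alx4 lay below that median on all 6 arrays (4.94 to 5.17).

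The 250 bases before the start site of 5 members are shown because they carry the sequence motifs most tied to muscle transcription, for 4 members that fell and for Chrng, which did not pass. They are from RefSeq on GRCm38.p6, in gene orientation and ending at the base before the start: Actc1 at chr2:114052876-114053125 (minus strand), Ttn at chr2:76982548-76982797 (minus strand), Tnnt2 at chr1:135836084-135836333 (plus strand, the more upstream of 2 listed starts), Myl1 at chr1:66945057-66945306 (minus strand) and Chrng at chr1:87205561-87205810 (plus strand). Capitals mark a CArG box, the motif of serum response factor, in Actc1, a MEF2 motif in Ttn, and CAGCTG, the form of the CANNTG E-box that myogenic factors prefer, in Tnnt2, Myl1 and Chrng.
Actc1: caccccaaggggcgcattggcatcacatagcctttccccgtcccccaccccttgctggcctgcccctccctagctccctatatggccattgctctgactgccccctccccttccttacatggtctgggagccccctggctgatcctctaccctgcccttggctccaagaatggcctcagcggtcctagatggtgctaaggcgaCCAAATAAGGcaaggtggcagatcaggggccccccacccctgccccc
Ttn: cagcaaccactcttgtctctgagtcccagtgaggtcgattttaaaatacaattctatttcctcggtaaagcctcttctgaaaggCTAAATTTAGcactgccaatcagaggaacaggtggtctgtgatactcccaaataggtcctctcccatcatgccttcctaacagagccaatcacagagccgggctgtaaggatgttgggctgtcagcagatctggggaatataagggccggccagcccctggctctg
Tnnt2: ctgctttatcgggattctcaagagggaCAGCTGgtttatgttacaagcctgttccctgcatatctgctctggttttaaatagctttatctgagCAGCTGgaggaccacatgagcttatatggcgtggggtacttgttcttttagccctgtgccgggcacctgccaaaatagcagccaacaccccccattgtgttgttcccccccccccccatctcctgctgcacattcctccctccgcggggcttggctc
Myl1: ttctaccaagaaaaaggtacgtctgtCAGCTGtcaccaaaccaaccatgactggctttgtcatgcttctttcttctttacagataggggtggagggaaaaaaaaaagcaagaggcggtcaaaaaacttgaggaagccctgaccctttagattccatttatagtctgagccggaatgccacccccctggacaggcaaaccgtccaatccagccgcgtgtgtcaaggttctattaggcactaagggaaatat
Chrng: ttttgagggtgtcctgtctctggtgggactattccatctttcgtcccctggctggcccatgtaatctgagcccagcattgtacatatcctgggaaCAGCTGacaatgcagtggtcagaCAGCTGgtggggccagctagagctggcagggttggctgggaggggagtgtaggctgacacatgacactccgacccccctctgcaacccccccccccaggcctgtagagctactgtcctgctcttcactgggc
The CArG box of Actc1 lay 38 to 47 bases before the start, and the MEF2 motif of Ttn 157 to 166 bases before it. Tnnt2 and Chrng each held 2 copies of CAGCTG and Myl1 held 1.

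RefSeq windows were found for 29 members and 27025 genes in all, searched on both strands, with a gene counted if any of its listed windows matched. CAGCTG stood in 12 of 29 members (41.4%) and in 14.7% of all genes. Besides Tnnt2, Myl1 and Chrng, these were Acta1, Cacna1s, Cav3, Chrna1, Ckm, Des, Mybph, Mylpf and Tnni1. The wider CANNTG, which includes CAGCTG, stood in 23 of 29 members (79.3%) and in 69.3% of all genes. A CArG box stood in Acta1, Actc1, Ldb3 and Myom1 (13.8%, against 1.62% of all genes), and a MEF2 motif in Casq2, Myh8 and Ttn (10.3%, against 3.42%). The members were chosen as muscle genes, so these shares describe the set. Of the 6 members that passed the test, all with a window, CAGCTG stood in 2, a CArG box in 2 and a MEF2 motif in 1.

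Part of the set fell in the labelled-mutant arches, and no member rose. Every direction given here follows the labels, and an exchange of the labels would turn each of them round. The genes that fell were Actc1, Ttn, Myl1, Tnnt2, Myom1 and Fndc5, with changes from -1.79 to -0.42. These are 6 of 36 members (16.7%), where 4.30% of all genes were called lower. None was called higher (limma, 0 of 36, against 1.23% of all genes). At an unadjusted p under 0.05, 2 members were higher, Tnni2 and Chrnd, against 8.54% of all genes. At that unadjusted level 14 members were lower (38.9%), against 10.2% of all genes. The labelled-mutant arrays all lay below the labelled-control arrays in 12 members (33.3%, against 11.9% of all genes) and all above them in 2 (5.56%, against 13.0%). The median change was -0.27 over the members and 0.02 over all genes. Of the members' changes 28 of 36 were negative, and of those of all genes 8131 of 18194. In whole arches, fewer muscle cells and less RNA per muscle cell cannot be told apart.

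The number of members called depended on single arrays. It was 6 without labelled-control array 1, 0 without labelled-control array 2, 1 without labelled-control array 3, 5 without labelled-mutant array 1, 0 without labelled-mutant array 2 and 1 without labelled-mutant array 3. It was 3 with the mean of each gene's probe sets and 0 with signals floored at the 20th percentile, although 5 of the 6 genes had no signal under that floor. The median change was -0.08 without labelled-control array 3. The direction of each of the 6 genes was the same in every one of these fits. Their groups do not overlap, so leaving out a single array could not reverse it.

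**Figure D1:**
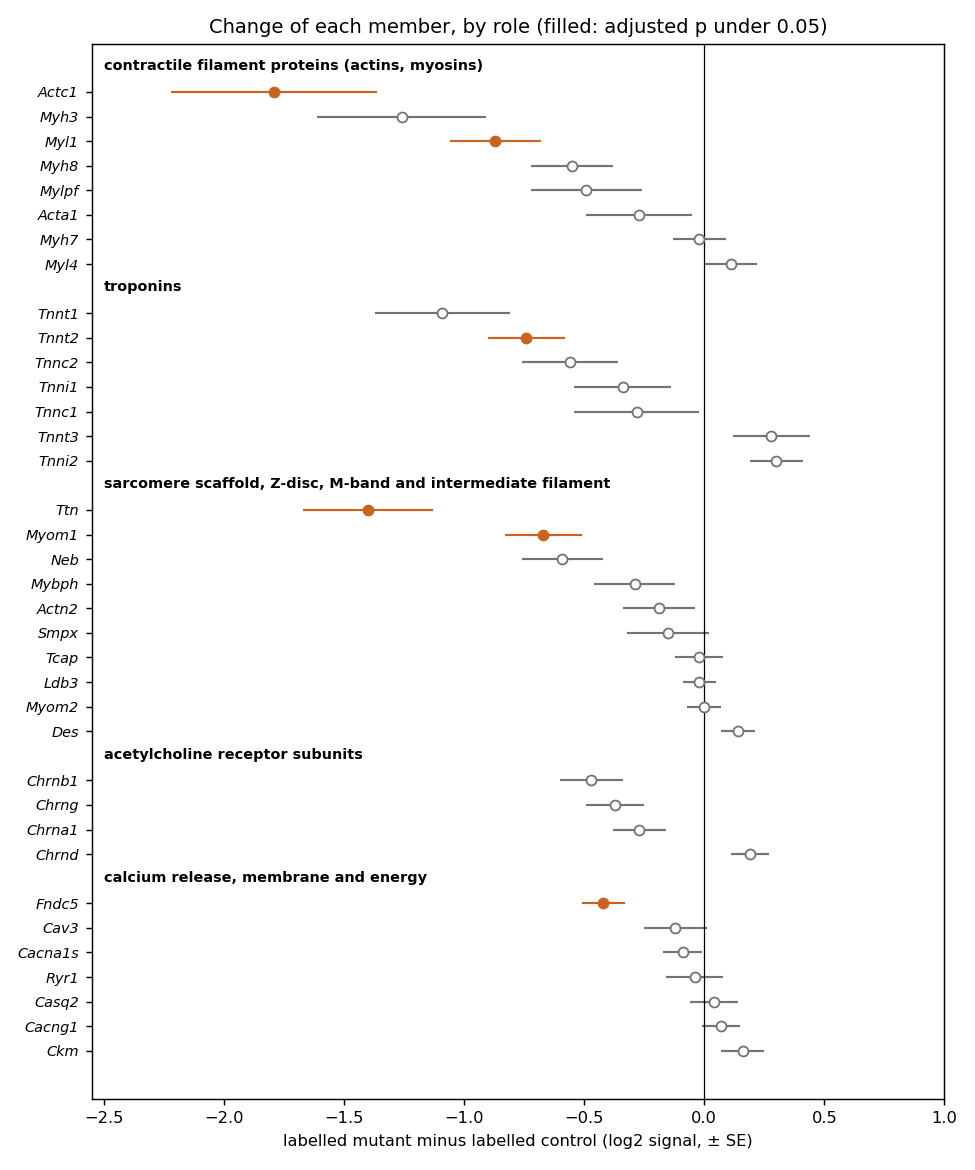
Change of each of the 36 members in log2 signal, labelled mutant minus labelled control, with bars of ± SE, grouped by role. Filled points are the 6 members with an adjusted p under 0.05, all to the left of 0, from -0.42 for Fndc5 to -1.79 for Actc1, and open points did not pass.

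Among the 8 filament proteins, the actin gene Actc1 and the light chain gene Myl1 fell and the other 6 did not pass. Actc1, the cardiac alpha-actin that is the main sarcomeric actin of embryonic skeletal muscle, read 8.81, 9.69 and 9.55 in labelled-control arrays 1, 2 and 3 and 8.59, 6.67 and 7.42 in labelled-mutant arrays 1, 2 and 3. The groups did not overlap, but labelled-mutant array 1 lay just under the lowest control, while array 2 was far lower. The change was -1.79 (SE 0.43, 3.46-fold lower; limma, Benjamini-Hochberg adjusted p = 0.0494). This was the highest adjusted p of the 6 called members. With limma the adjusted p was 0.0613, 0.175 and 0.117 without labelled-control arrays 1, 2 and 3, 0.122 and 0.167 without labelled-mutant arrays 2 and 3, and 0.00482 without labelled-mutant array 1. It was 0.0506 with dim genes left out, 0.166 with trend and robust settings and 0.0610 with the mean of probe sets. Acta1, the skeletal alpha-actin that takes over later, read 5.89, 6.29 and 6.88 against 6.23, 5.96 and 6.06. Its groups overlapped, and the change of -0.27 (SE 0.22) did not pass.

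Myl1, an essential light chain of fast myosin, read 5.57, 6.09 and 6.34 in the labelled-control and 5.12, 5.35 and 4.93 in the labelled-mutant arrays. All 3 labelled-mutant arrays were lower and close together. It fell by 0.87 (SE 0.19; limma, adjusted p = 0.0345). With limma its adjusted p was 0.131 and 0.0713 without labelled-control arrays 2 and 3, and 0.0890, 0.0555 and 0.142 without labelled-mutant arrays 1, 2 and 3. Myh3, the embryonic myosin heavy chain, had a larger change that missed the threshold. It read 6.12, 6.59 and 7.57 against 5.98, 5.45 and 5.08, without overlap, and the change was -1.26 (SE 0.35; limma, adjusted p = 0.0841). Labelled-control array 3 stood well above the other controls, and without labelled-control array 1 the gene passed (limma, adjusted p = 0.0472).

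The other myosin genes did not pass. Myh8, the perinatal heavy chain, read 3.87, 4.43 and 4.55 against 3.80, 3.78 and 3.60, near and below the arrays' 25th percentile of 4.33, with a change of -0.55 (limma, adjusted p = 0.109). It passed at 0.00768 without labelled-control array 1, the lowest control. Mylpf, the regulatory light chain of fast fibres, read 6.93, 7.24 and 7.93 against 7.09, 6.68 and 6.84, so that the groups overlapped, with a change of -0.49 (SE 0.23). Myh7, the slow and cardiac heavy chain, changed by -0.02 (SE 0.11) and Myl4, the embryonic and atrial light chain, by 0.11 (SE 0.11). A dimmer probe set of Myl4 read 4.63, 4.93 and 5.79 against 4.84, 4.43 and 4.49, with a change of -0.53 (SE 0.27) that did not pass either.

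**Figure D2:**
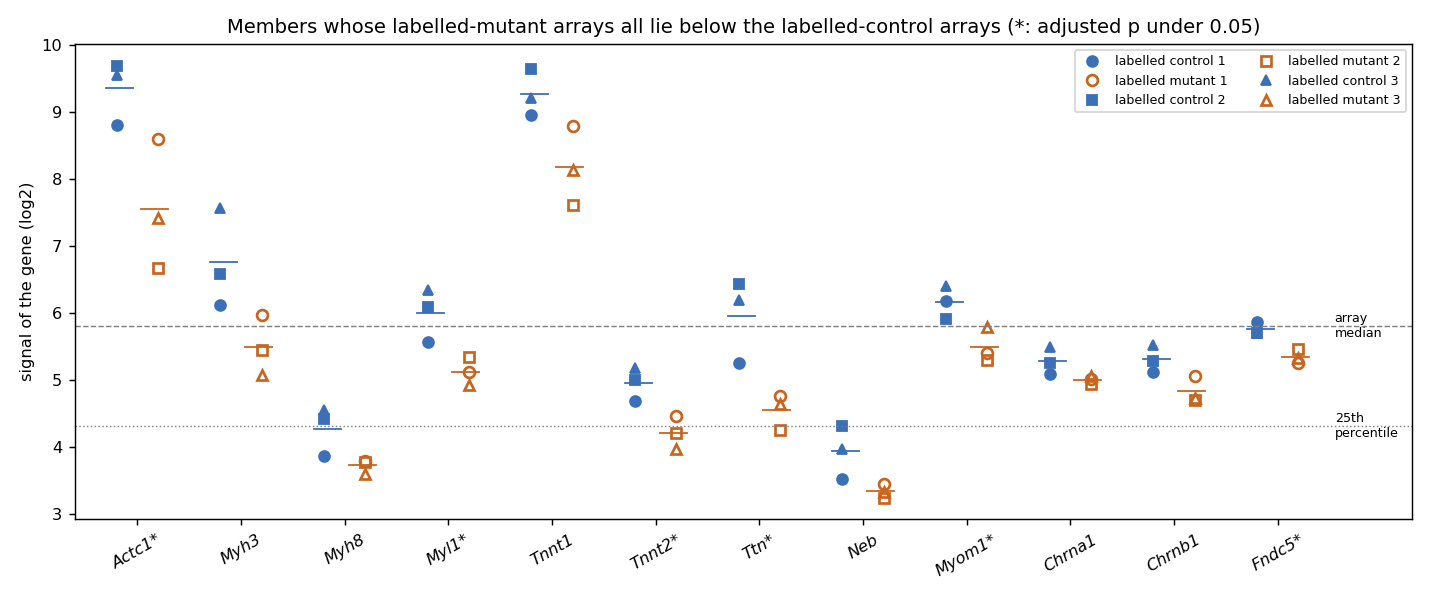
Log2 signal of the 12 members whose labelled-mutant arrays (open) all lie below the labelled-control arrays (filled), with group means as short lines, the arrays' median and 25th percentile as dashed and dotted lines, and an asterisk on the 6 that passed. The spread inside a group is large for Actc1, from 6.67 to 8.59 in the labelled-mutant arrays, and small for Fndc5, from 5.25 to 5.46.

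In the troponin complex Tnnt2 fell and the other 6 genes did not pass. Tnnt2, the cardiac troponin T that embryonic skeletal muscle also makes, read 4.69, 5.0 and 5.18 against 4.47, 4.21 and 3.97. The groups lay apart, with labelled-mutant arrays 2 and 3 below the 25th percentile and array 3 also below the 20th percentile. It fell by 0.74 (SE 0.16; limma, adjusted p = 0.0303), and with limma its adjusted p was 0.115 and 0.0738 without labelled-control arrays 2 and 3 and 0.106 and 0.118 without labelled-mutant arrays 2 and 3. Tnnt1, the slow troponin T, read 8.95, 9.64 and 9.21 against 8.79, 7.61 and 8.13. Here labelled-mutant array 1 again sat just under the controls, and the change of -1.09 (SE 0.28; limma, adjusted p = 0.0651) did not pass, although it did at 0.0121 without that array. Tnnt3, the fast form, changed by 0.28 (SE 0.16) at signals between 3.80 and 4.45.

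None of the calcium-binding and inhibitory troponins passed the test. Tnnc1, the slow and cardiac troponin C, read 5.94, 6.25 and 7.11 against 6.31, 5.94 and 6.20. Tnni1, the slow troponin I, read 5.81, 5.97 and 6.68 against 5.87, 5.81 and 5.76. In both genes labelled-control array 3 was the high one, the other arrays lay close together and the groups overlapped. The fast forms differed in sign, with Tnnc2 at -0.56 (SE 0.20) and Tnni2 at 0.30 (SE 0.11; limma, adjusted p = 0.184 and 0.170). Tnni2 read 5.49, 5.44 and 5.74 against 5.72, 5.97 and 5.88, and its dimmer probe sets changed by 0.01 and 0.05.

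The giant scaffold protein titin and the M-band protein myomesin fell, and the Z-disc members Actn2, Ldb3 and Tcap had small changes. Ttn, which spans the sarcomere from Z-disc to M-band, read 5.26, 6.43 and 6.20 against 4.77, 4.26 and 4.64. Every labelled-mutant array was lower than every control, with labelled-control array 1 nearest to them. It fell by 1.40 (SE 0.27, 2.65-fold; limma, adjusted p = 0.0216), the lowest adjusted p of the set. With limma it was 0.0817 and 0.0631 without labelled-control arrays 2 and 3, and 0.0869 and 0.0732 without labelled-mutant arrays 2 and 3. Myom1, which links thick filaments in the M-band, read 6.18, 5.91 and 6.41 against 5.40, 5.30 and 5.79. Labelled-mutant array 3 was nearest to the controls, unlike in Actc1 and Ttn. It fell by 0.67 (SE 0.16; limma, adjusted p = 0.0474), and with limma its adjusted p was 0.106, 0.0505 and 0.107 without labelled-control arrays 1, 2 and 3 and 0.136 and 0.178 without labelled-mutant arrays 1 and 2.

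Ttn had 6 probe sets, and they did not move alike. The brightest and the one that read 5.13, 5.46 and 6.05 against 4.82, 4.43 and 4.92 were both lower, the latter with a change of -0.83 (SE 0.23; limma over 34958 probe sets, adjusted p = 0.124). A further probe set above the 25th percentile on every array changed by 0.04 (SE 0.15), and the rest, below it on every array, by 0.13, -0.05 and 0.10. With the mean of its probe sets the change of Ttn was -0.33, which did not pass (limma, adjusted p = 0.115). Tnnt2 had 2 probe sets with changes of -0.74 and -0.75 and a dim one that changed by 0.15, and with their mean it still passed, at -0.44. Fndc5 had 2, with changes of -0.42 and -0.44. Of 57 probe sets of the members, 3 passed when tested over all probe sets, 1 each for Tnnt2, Ttn and Fndc5, and all 3 were lower. The share of all 34958 probe sets that passed was not counted, so these 3 cannot be set against it. For Ttn the probe set that passed was the brightest. For Tnnt2 and Fndc5 it was a dimmer one, and the brightest did not pass in that larger test (limma, adjusted p = 0.0581 and 0.0591). The Tnnt2 probe set that passed read 3.95, 3.70 and 3.99 in the labelled-mutant arrays, all below the 25th percentile. The only probe sets of Actc1, Myl1 and Myom1 did not pass in that larger test.

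**Figure D3:**
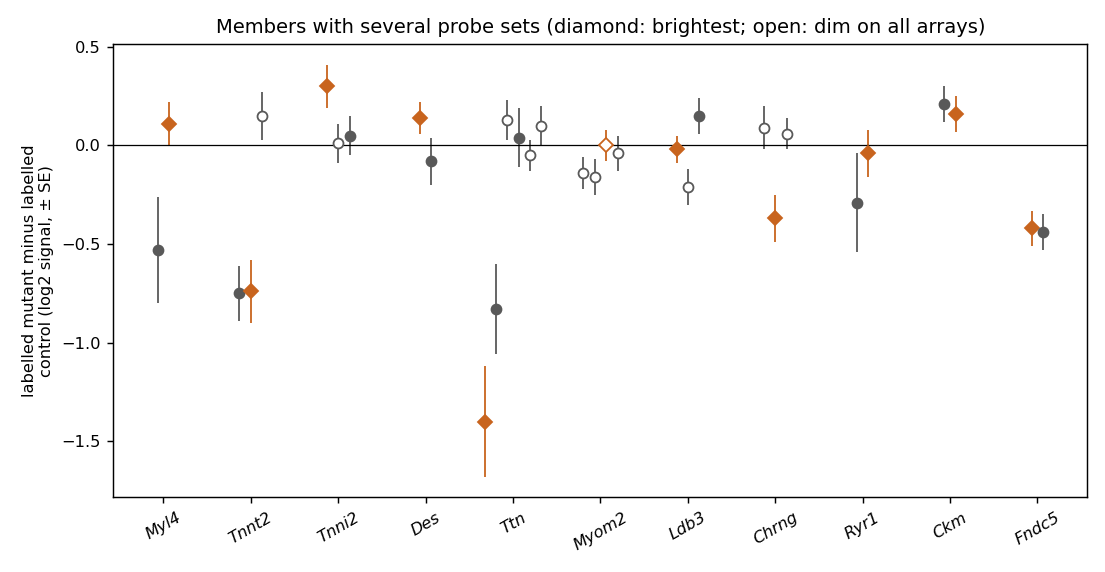
Change in log2 signal, with bars of ± SE, for every probe set of the 11 members that have several. Diamonds are the brightest probe set, which gives the gene its level, and open symbols lie below the 25th percentile on all 6 arrays. Both probe sets of Fndc5 and the 2 brighter ones of Tnnt2, which lie below the array median on all 6 arrays, are lower. Those of Ttn run from -1.40 to 0.13.

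Among the remaining scaffold genes, Neb, the ruler of the thin filament, read 3.53, 4.32 and 3.97 against 3.46, 3.25 and 3.34. The groups did not overlap but every signal lay below the 25th percentile, and the change of -0.59 (limma, adjusted p = 0.103) passed only without labelled-control array 1, at 0.0158. Des, the intermediate filament protein desmin, was among the steadiest members and read 6.95, 6.88 and 6.93 against 7.13, 7.03 and 7.01. Its labelled-mutant arrays were all slightly higher, by 0.14 (SE 0.07), which did not pass, and its dimmer probe set changed by -0.08. The Z-disc members Actn2, Ldb3 and Tcap changed by -0.19, -0.02 and -0.02, and lay below the array median on all 6 arrays. Mybph, a myosin-binding protein, changed by -0.29 (SE 0.17), Myom2 by 0.00 and Smpx by -0.15, the last 2 below the 25th percentile on every array.

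None of the 4 subunits of the muscle acetylcholine receptor passed (limma). At an unadjusted p under 0.05, 3 of them were lower (against 10.2% of all genes) and Chrnd was higher (against 8.54%). Chrna1, the subunit that binds acetylcholine, read 5.09, 5.25 and 5.49 against 5.02, 4.95 and 5.06. Its groups lay just apart, with a change of -0.27 (SE 0.11; limma, adjusted p = 0.219). Chrnb1 read 5.12, 5.28 and 5.52 against 5.07, 4.70 and 4.74, again just apart. Its change was -0.47 (SE 0.13; limma, adjusted p = 0.0923), and it passed at 0.0448 without labelled-mutant array 1, the array nearest to the controls. Chrng, the subunit of the fetal receptor that is later replaced, read 6.49, 6.27 and 6.47 against 6.00, 6.28 and 5.84, overlapping through labelled-mutant array 2, with a change of -0.37 (limma, adjusted p = 0.139). Its other 2 probe sets were dim and changed by 0.09 and 0.06. Chrnd read 6.06, 5.95 and 6.01 against 6.19, 6.31 and 6.09, a change of 0.19 (SE 0.08; limma, adjusted p = 0.263) in the opposite direction to its partners.

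Of the genes for calcium release, membrane and energy supply, Fndc5 alone passed. Fndc5, a membrane protein from which the hormone irisin is cut, read 5.87, 5.70 and 5.71 against 5.25, 5.46 and 5.33. Both groups were tight and separate. It fell by 0.42 (SE 0.09; limma, adjusted p = 0.0305), and with limma its adjusted p was 0.0628 and 0.0677 without labelled-control arrays 1 and 2 and 0.102, 0.0544 and 0.135 without labelled-mutant arrays 1, 2 and 3. The voltage sensor and release channel of excitation-contraction coupling had small changes, with Cacna1s at -0.09 and Ryr1 at -0.04. Cacng1, a partner of Cacna1s, changed by 0.07, and both it and Cacna1s were below the 25th percentile on all arrays. Casq2, which stores calcium, changed by 0.04, Cav3, the muscle caveolin, by -0.12 and Ckm, the muscle creatine kinase, by 0.16. Below that percentile a small change cannot show whether a gene differs.

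The arrays differed inside each group more for the members than for most genes. The range over the 3 labelled-control arrays exceeded 0.5 in 16 of 36 members (44.4%), against 9.49% of all genes, and over the 3 labelled-mutant arrays in 7 (19.4%), against 3.19%. In the labelled-control group, 14 members were highest on array 3 and lowest on array 1 with array 2 between (38.9%, against 22.7% of all genes). They were Acta1, Myh3, Myh8, Myl1, Mylpf, Tnnt2, Tnnc1, Tnnc2, Tnni1, Actn2, Smpx, Mybph, Chrna1 and Chrnb1. The gap between arrays 3 and 1 was 1.45 for Myh3, 1.16 for Tnnc1, 1.00 for Mylpf and 0.99 for Acta1. Labelled-control array 2 was instead the highest, and array 1 the lowest, for 7 members that include Actc1, Tnnt1, Ttn and Neb. Labelled-control array 3 was also the highest of its group for 11 of 11 epithelial markers and 8 of 9 leukocyte markers. It was the highest for 41.4% of all genes. The part of this in the members' levels was not tested.

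In the labelled-mutant group, Actc1 and Tnnt1 differed most between arrays. In 10 of 36 members (27.8%, against 22.8% of all genes) signals were highest on labelled-mutant array 1 and lowest on array 2, among them Actc1, Tnnt1, Ttn, Mylpf, Tnnc1 and Chrnb1. The gap between arrays 1 and 2 was 1.91 for Actc1 and 1.18 for Tnnt1 but at most 0.53 for every other member. Relative to the control mean, labelled-mutant array 1 stood at -0.77 for Actc1 and -0.47 for Tnnt1, whereas array 2 stood at -2.68 and -1.65.

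**Figure D4:**
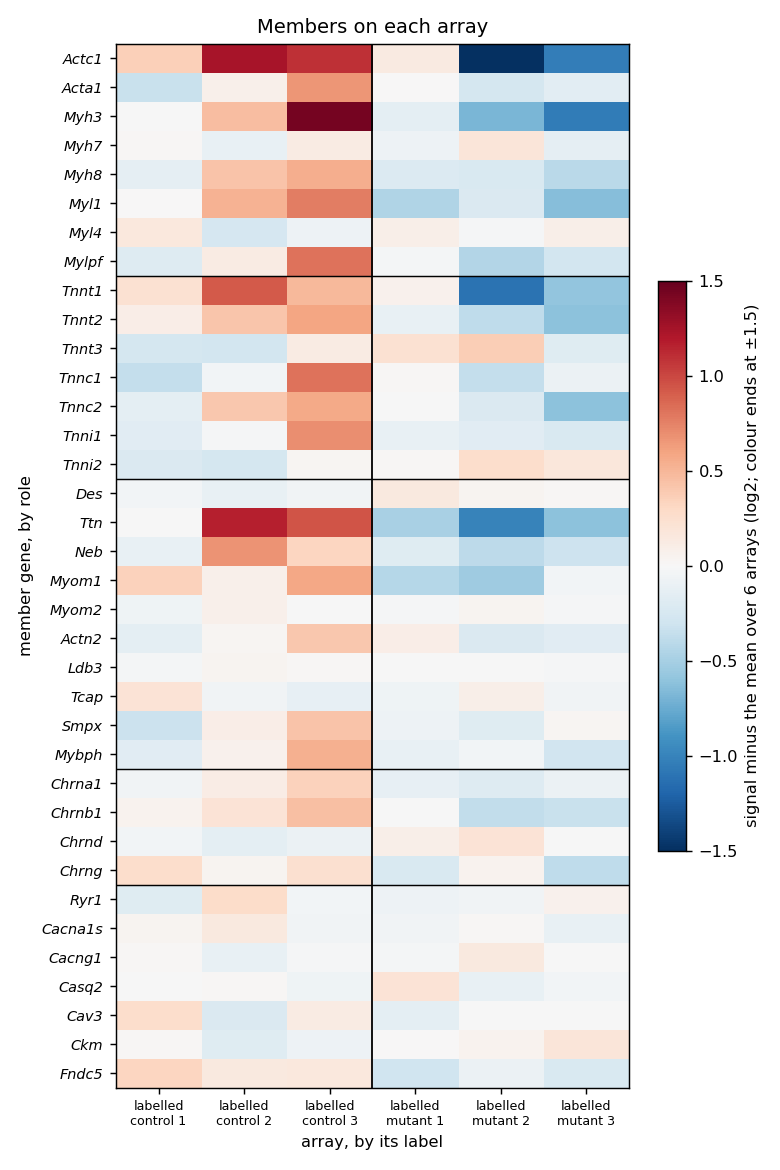
Log2 signal of each member on each array minus its mean over the 6 arrays, by role, with red above and blue below that mean and the colour ending at ±1.5. Labelled-control array 3 is the highest array of its group for 18 of the 36 members, and the lowest values are those of Actc1 and Tnnt1 on labelled-mutant array 2 and of Myh3 and Actc1 on labelled-mutant array 3.

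Of the myogenic factors, Myog and Myod1 fell, and Myf5 and Myf6 did not pass. Myog, which drives terminal differentiation, read 7.88, 8.54 and 8.38 in the labelled-control arrays and 6.79, 5.15 and 6.12 in the labelled-mutant arrays. Its labelled-mutant arrays had the same order as those of Actc1, Tnnt1 and Ttn, with array 1 highest and array 2 lowest. It fell by 2.25 (SE 0.36; limma, adjusted p = 0.00922), at 0.0535 without labelled-control array 2. Myod1, which commits cells to muscle, read 6.68, 7.16 and 7.38 against 6.55, 5.64 and 5.94. It fell by 1.03 (SE 0.24; limma, adjusted p = 0.0455), with labelled-mutant array 1 just below the lowest control. With limma its adjusted p was 0.155 and 0.114 without labelled-control arrays 2 and 3 and 0.152 and 0.165 without labelled-mutant arrays 2 and 3. With the mean of its probe sets the change of Myod1 was -0.58 (limma, adjusted p = 0.0571), and with trend and robust settings its adjusted p was 0.0528. Myf5, an earlier marker of muscle precursors, read 7.84, 7.54 and 7.17 against 7.59, 7.01 and 7.38, overlapping, with a change of -0.19 (SE 0.19). Myf6, which acts late, read 3.95 to 4.43 on the 6 arrays and changed by -0.11. Of 18 regulatory factors measured, 7 were lower (38.9%, against 4.30% of all genes), 1 was higher (against 1.23%) and 10 did not pass. Isl1, Pax7 and Tbx1 were also among the lower genes (-0.85, -0.97 and -0.72), and Eya1 was the higher one (0.86). Each of them passed whichever array was left out (limma). With the mean of its probe sets the change of Isl1 was -0.47 (limma, adjusted p = 0.0608). The array order seen in Myog held in 11 of the 18, against 22.8% of all genes.

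**Figure D5:**
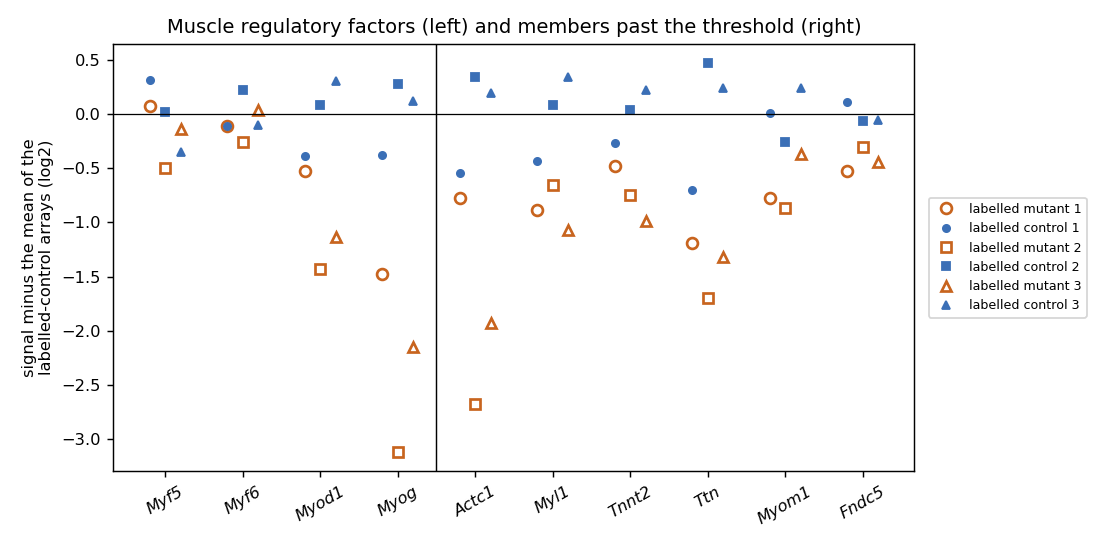
Log2 signal of 4 muscle regulatory factors and of the 6 members past the threshold on each array, minus the mean of the labelled-control arrays. Labelled-mutant array 2 (open square) is lowest for Myog, Myod1, Actc1 and Ttn, and labelled-mutant array 1 (open circle) is nearest to the controls for these genes.

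Further muscle genes were taken from lists that leave out the members, and the difference between these lists and the members was not tested. Of 31 other contractile genes 4 were lower (12.9%, against 4.30% of all genes), 0 higher (against 1.23%) and 27 did not pass, with a median of -0.03 (limma). At an unadjusted p under 0.05, 9 of them were lower (29.0%, against 10.2% of all genes) and 2 higher (against 8.54%). Tpm2, a tropomyosin also made outside muscle, read 11.11, 11.14 and 10.93 against 10.41, 10.33 and 10.38, and fell by 0.69 (limma, adjusted p = 0.00262). Actn3, Pdlim3 and Synpo2l, of the Z-disc, fell too (-0.68, -0.66 and -0.79). Tpm2 passed whichever array was left out, whereas the adjusted p of Actn3, Pdlim3 and Synpo2l reached 0.0919, 0.118 and 0.171 (limma), with each above 0.05 without labelled-control array 2, labelled-mutant array 2 or labelled-mutant array 3, among others. With the mean of its probe sets the change of Synpo2l was -0.25 (limma, adjusted p = 0.292). Cryab, a small heat shock protein of the Z-disc, read 5.80, 5.95 and 7.31 against 5.17, 4.97 and 4.85, without overlap, and its change of -1.36 did not pass (limma, adjusted p = 0.0610). It was singled out after its values were seen. Of 22 other calcium and membrane genes 2 were lower (9.09%), the sarcoglycan Sgcb (-0.65) and the channel subunit Cacna2d1 (-0.74), and the median was 0.00. With the mean of its probe sets Cacna2d1 changed by -0.31 and did not pass (limma, adjusted p = 0.0838). Of 10 other synapse genes 1 was higher, the agrin receptor Lrp4 by 0.42 (limma, adjusted p = 0.0442), which did not pass without labelled-control array 2 or 3 or any 1 labelled-mutant array, at up to 0.178. Of 12 energy genes Eno3, the muscle enolase, was higher by 1.19 and Ckb, the creatine kinase of brain and early muscle, lower (-0.56). Eno3 was not called without labelled-control array 2 (limma, adjusted p = 0.0565) or labelled-mutant array 3 (0.0573).

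Markers of heart and of smooth muscle each held 1 gene past the test, which was lower (9.09% of each list, against 4.30% of all genes). Of 11 cardiac markers 1 was lower, Tnni3 (-0.52; limma, adjusted p = 0.00905, and 0.0548 without labelled-mutant array 3), and the list averaged 4.92 to 4.96 in the labelled-control and 4.77 to 4.91 in the labelled-mutant arrays. Myl2, Nppa and Ryr2 lay below the 25th percentile on all 6 arrays. Of 11 smooth muscle and pericyte markers 1 was lower, and the list averaged 6.87 to 7.06 and 6.91 to 7.04. That gene was Acta2, an actin also made by embryonic skeletal muscle, which read 9.86, 10.27 and 10.01 against 9.48, 8.08 and 8.35. It fell by 1.41 (limma, adjusted p = 0.0366), and its adjusted p rose to as much as 0.144 (limma) when any array but labelled-mutant array 1 was left out. With the mean of its probe sets the change of Acta2 was -0.41 (limma, adjusted p = 0.113), and with trend and robust settings its adjusted p was 0.0980. Members of this list differed in sign, and Rgs5, a pericyte marker singled out after its values were seen, read 8.65, 8.19 and 7.07 against 8.71, 9.16 and 9.57, a change of 1.18 that did not pass (limma, adjusted p = 0.126). Myh11, the defining myosin of smooth muscle, changed by 0.02.

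Markers of some other cell types differed as well. Of all genes, 4.30% were called lower and 1.23% higher, and at an unadjusted p under 0.05 10.2% were lower and 8.54% higher (limma). Of 10 neuronal markers 5 were lower, among them Nefl (-2.56) and Nefm (-2.51). Isl1 is 1 of the 5 and was also counted among the regulatory factors. The neuronal list averaged 7.36 to 7.51 in the labelled-control and 6.45 to 6.70 in the labelled-mutant arrays. Leukocyte markers averaged 6.57 to 6.97 and 6.36 to 6.62 with 1 of 9 lower, and red blood cell markers 10.31 to 10.75 and 10.13 to 10.36 with 1 of 7 lower. For both lists the ranges of the groups overlapped. At an unadjusted p under 0.05, 3 leukocyte markers (33.3%) and 2 red blood cell markers (28.6%) were lower (limma), against 38.9% of the members. The labelled-mutant arrays all lay below the labelled-control arrays in 4 leukocyte markers (44.4%), against 33.3% of the members and 11.9% of all genes. All 5 measured markers of Schwann cell precursors had negative changes, with a median of -0.55, and averaged 7.21 to 7.90 and 6.89 to 7.08. Of these, Sox10 alone passed (-0.66; limma, adjusted p = 0.0348), and its adjusted p was up to 0.136 without 1 array and 0.380 with the mean of its probe sets. At an unadjusted p under 0.05, 3 of the 5 Schwann cell precursor markers were lower (60.0%, limma). Erbb3 stands both on this list and on that of the other synapse genes. Of 11 epithelial markers 1 was higher and 0 lower (limma, with 3 higher and 1 lower at an unadjusted p under 0.05), and they averaged 8.43 to 9.11 and 8.65 to 8.80. Of 10 endothelial markers 0 passed, and 0 had an unadjusted p under 0.05 (limma), with averages of 7.64 to 7.94 and 7.72 to 7.86. Of 12 arch mesenchyme markers 5 were higher and 2 lower. The part of these cell types in the members' changes was not tested. Housekeeping genes averaged 12.15 to 12.22 and 12.21 to 12.25, and centring each array on them gave the same 6 calls among the members.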

How the data were processed

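Total RNA of 6 samples of branchial arch 1 was biotin-labelled and hybridised to Affymetrix arrays, per the labels and the platform annotation. The values deposited by the authors are log2 signals per probe set, a scale inferred from the range of 2.63 to 14.68 on every array. All 6 arrays share their quantiles, so the authors had brought them to a common distribution. How signals were background-corrected and summarised, and by which software, is not given in the sources used here. Of 45101 probe sets, 34958 have a single symbol in the annotation of 2016. Each gene is its probe set with the highest mean, with no filter on dim genes. Labelled mutant was compared with labelled control with limma 3.58.1 in R 4.3.3 (lmFit and eBayes, two-sided, Benjamini-Hochberg over 18194 genes), a procedure tested on simulated data. The number of arrays limits the precision. The labels call the samples biological replicates and give 1 arch for each embryo, without the number of embryos in a sample.

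The members, the other lists and the rule for named genes were chosen with earlier results of these data known. The rule names all members, the leading called genes of each other muscle list, and Myod1, Myog, Myf5 and Myf6. Changes are not given for every called cell type marker. Lists are described by counts and medians, without a test of the list.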

Additional observations from a re-analysis of the deposited data

How the results depend on the processing

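The direction of the 6 members past the threshold was the same under all 13 alternatives, but their calls were not. Leaving out an array could not reverse a direction, because the groups of these members do not overlap. The replicate block, the trend and robust settings and leaving out dim genes do not alter the change itself. With a replicate block, 657 genes passed in place of 1007, and 2 members in place of 6, Ttn and Myom1. The replicate numbers do not pair the arrays (deviation correlations of -0.211, -0.122 and -0.066), and 0 of 6 arrays correlated best with their own number. With the mean of probe sets 3 members passed (Myl1, Tnnt2 and Fndc5). With floored signals 0 members and 329 genes passed. Myog, Myod1, Isl1, Pax7, Tbx1, Eya1, Actn3, Pdlim3, Synpo2l, Cacna2d1, Lrp4, Eno3, Acta2 and Sox10 then did not pass (limma, adjusted p from 0.0613 to 0.190). With the replicate block Myod1, Actn3, Pdlim3, Synpo2l, Lrp4, Acta2 and Sox10 did not pass (limma, 0.0504 to 0.112), and centred on housekeeping genes Lrp4 did not (limma, 0.0567). Without each array in turn, all genes past the threshold ranged from 435 to 1021, members lower from 0 to 6 and the median change of the members from -0.35 to -0.08. Members called higher stayed at 0 throughout. Quantile normalization and centring on housekeeping genes kept the same 6 members. The arrays already shared their quantiles, so the quantile normalization could change little. Without labelled-control array 1, the 6 members lower were Myl1, Tnnt2 and Ttn with Myh3, Myh8 and Neb. The cause of these differences was not tested. Signals near the low end limit what can be said of Neb, Myom2, Smpx, Cacna1s and Cacng1, which lay below the 25th percentile on all arrays. The limit also holds for Myh8, Tnnt2, Tnnt3, Ttn, Mybph and Cav3, which lay below it on some arrays. The array median was above the signals of 17 members on all arrays.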
